A study of Mus musculus with 12 samples.

Results

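Serotonin signals through a family of membrane receptors that differ in the G protein they couple to, and monoamine oxidase A, encoded by Maoa, breaks the transmitter down. A set of 10 genes is described here: 9 serotonin receptor genes (Htr1a, Htr1b, Htr1f, Htr2a, Htr2c, Htr4, Htr5a, Htr6 and Htr7) and Maoa. They were chosen by symbol, taken from the gene names of the authors' FPKM values and matched by Ensembl ID to the authors' count table; the rule uses no measured value, but the set was chosen with earlier results of these data known. The count table lists 35812 gene IDs and holds 9 of the 10 genes. Htr4 was not analysed in counts here and is given from FPKM (fragments scaled to transcript length and library size), which list all 10 genes.

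The raphe nuclei of the brainstem send serotonin fibres into the hippocampus, where pyramidal cells, granule cells and interneurons carry different receptors. Receptors of the Htr1 and Htr5 groups couple to inhibitory G proteins, Htr2 receptors couple through phospholipase C to calcium release, and Htr4, Htr6 and Htr7 raise cyclic AMP. Htr2c is also a well-known receptor of the choroid plexus, the fluid-secreting tissue of the ventricles that borders the hippocampus, and Ttr (transthyretin) is the most abundant transcript of that tissue.

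Hippocampal RNA came from 12 male C57BL/6 mice aged 8 weeks, 3 mice in each of 4 groups. F0_Ctl were normal mice, F0_Dep were mice in which depression had been induced by stress, F1_Ctl were offspring of normal males, and F1_Dep were offspring of stress-induced depressed males. The way stress was applied and the fathers and litters of the F1 mice are unstated in the labels, so offspring within a group may be littermates and p-values measure the spread between these mice. The F1_Ctl labels alone carry sequencing lane names, so a difference in sequencing cannot be told apart from that group.

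Library totals ran from 18277208 to 23083678 estimated counts, and 16163 genes were fitted. Markers of hippocampal and other neurons (Snap25, Rbfox3, Slc17a7, Neurod2 and Zbtb20) summed to between 3578 and 4783 CPM (counts scaled to library size) in every library. Levels of a marker list are given as the median over its genes of log2 CPM centred on the mean of the 12 libraries. By this measure the neuronal markers stood at 0.11 to 0.22 in F0_Dep and at -0.17 to -0.09 in F1_Dep, without overlap. They ran from -0.12 to 0.11 in F0_Ctl and from -0.27 to 0.13 in F1_Ctl. Markers of neighbouring tissue and of subfields also differed, which touches several receptors below. Choroid plexus markers (18 genes, all fitted) ranged from -3.18 to 2.55 in F0_Ctl, from -2.90 to -0.67 in F0_Dep, from -1.62 to 3.82 in F1_Ctl and from 1.60 to 2.74 in F1_Dep. CA1 pyramidal markers ran from -1.52 to 1.18 within F0_Ctl alone. Striatum markers stood at 2.78 in F1_Dep 1 and at 0.47 or below in the other 11 libraries, and dentate granule cell markers were lower in F1_Dep (-1.94, -0.27 and -0.67) than in any other library. In bulk tissue, fewer cells of a type and less RNA per cell cannot be told apart. Of markers of the neurons that make serotonin, Slc6a4 (the serotonin transporter) had at most 4 counts in a library, Fev at most 5, Gata3 at most 19 and Tph2, the enzyme that starts serotonin synthesis in neurons, at most 58.

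The bases before the transcription start are shown for 3 receptor genes: Htr2a and Htr6, whose levels separated groups of libraries, and Htr2c, whose level ranged widest. Sequences are RefSeq's for GRCm38.p6, 5′ to 3′ on the gene's strand. They were read for 9 of the 10 genes, and that of Htr4 was not read here. Capitals mark the GC box (GGGCGG or its complement CCGCCC) and the half-site of the glucocorticoid receptor (AGAACA or TGTTCT), and TATAAA was also searched on both strands. The Htr2a sequence ends where the GENCODE transcript starts (chr14:74640624-74640839, plus strand), the Htr6 sequence is that of the first of its 2 listed starts (chr4:139075571-139075820, minus strand), and Htr2c lies on the plus strand of X (chrX:146962263-146962512).
Htr2a: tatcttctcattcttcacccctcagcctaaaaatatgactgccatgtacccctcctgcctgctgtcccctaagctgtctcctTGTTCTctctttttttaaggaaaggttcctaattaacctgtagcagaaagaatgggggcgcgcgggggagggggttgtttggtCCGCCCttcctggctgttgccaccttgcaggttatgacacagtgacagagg
Htr6: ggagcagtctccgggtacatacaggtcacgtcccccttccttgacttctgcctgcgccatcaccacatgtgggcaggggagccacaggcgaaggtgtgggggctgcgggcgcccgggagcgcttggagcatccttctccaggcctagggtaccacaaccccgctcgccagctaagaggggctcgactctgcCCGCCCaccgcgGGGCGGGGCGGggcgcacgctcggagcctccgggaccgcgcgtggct
Htr2c: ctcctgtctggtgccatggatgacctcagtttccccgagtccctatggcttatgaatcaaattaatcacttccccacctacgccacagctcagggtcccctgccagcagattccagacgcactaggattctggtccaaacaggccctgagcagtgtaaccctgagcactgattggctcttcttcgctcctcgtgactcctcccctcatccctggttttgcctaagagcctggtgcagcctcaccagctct
Htr2a held 1 GC box and 1 half-site, Htr6 held 3 GC boxes of which a pair overlap, and Htr2c held none of the 3 motifs. Over the 250 bases before 32851 promoters, 32.7% held a GC box, 16.1% a half-site and 12.4% a TATAAA. A match of letters is a description and not evidence of binding.

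Per length of merged exons, Maoa and Htr1a stood well above the other genes. Over the 12 libraries Maoa averaged 7.53 ± 0.849 CPM per kilobase (mean ± SD) and Htr1a 7.23 ± 3.19. Maoa exceeded Htr1a in 6 of the 12 libraries, so the 2 were not ordered beyond their spread, but Htr1a exceeded the next gene, Htr2a (3.23 ± 0.833), in 10 of 12. Below them followed Htr2c at 2.95 ± 2.18, Htr1b at 2.54 ± 1.14, Htr6 at 2.26 ± 0.52, Htr7 at 2.01 ± 0.714 and Htr5a at 1.96 ± 0.296 CPM per kilobase, neighbours that each exceeded the next in between 4 and 9 of 12 libraries. Htr1f was lowest at 1.06 ± 0.334, below Htr5a in 12 of 12 libraries. In the authors' FPKM of 9 libraries the order began with Htr1a (8.1), Maoa (7.26) and Htr2c (6.75), Htr4 took place 5 of 10 at 3.05 ± 1.22, and Htr1f was again last at 1.13.

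**Figure D1:**
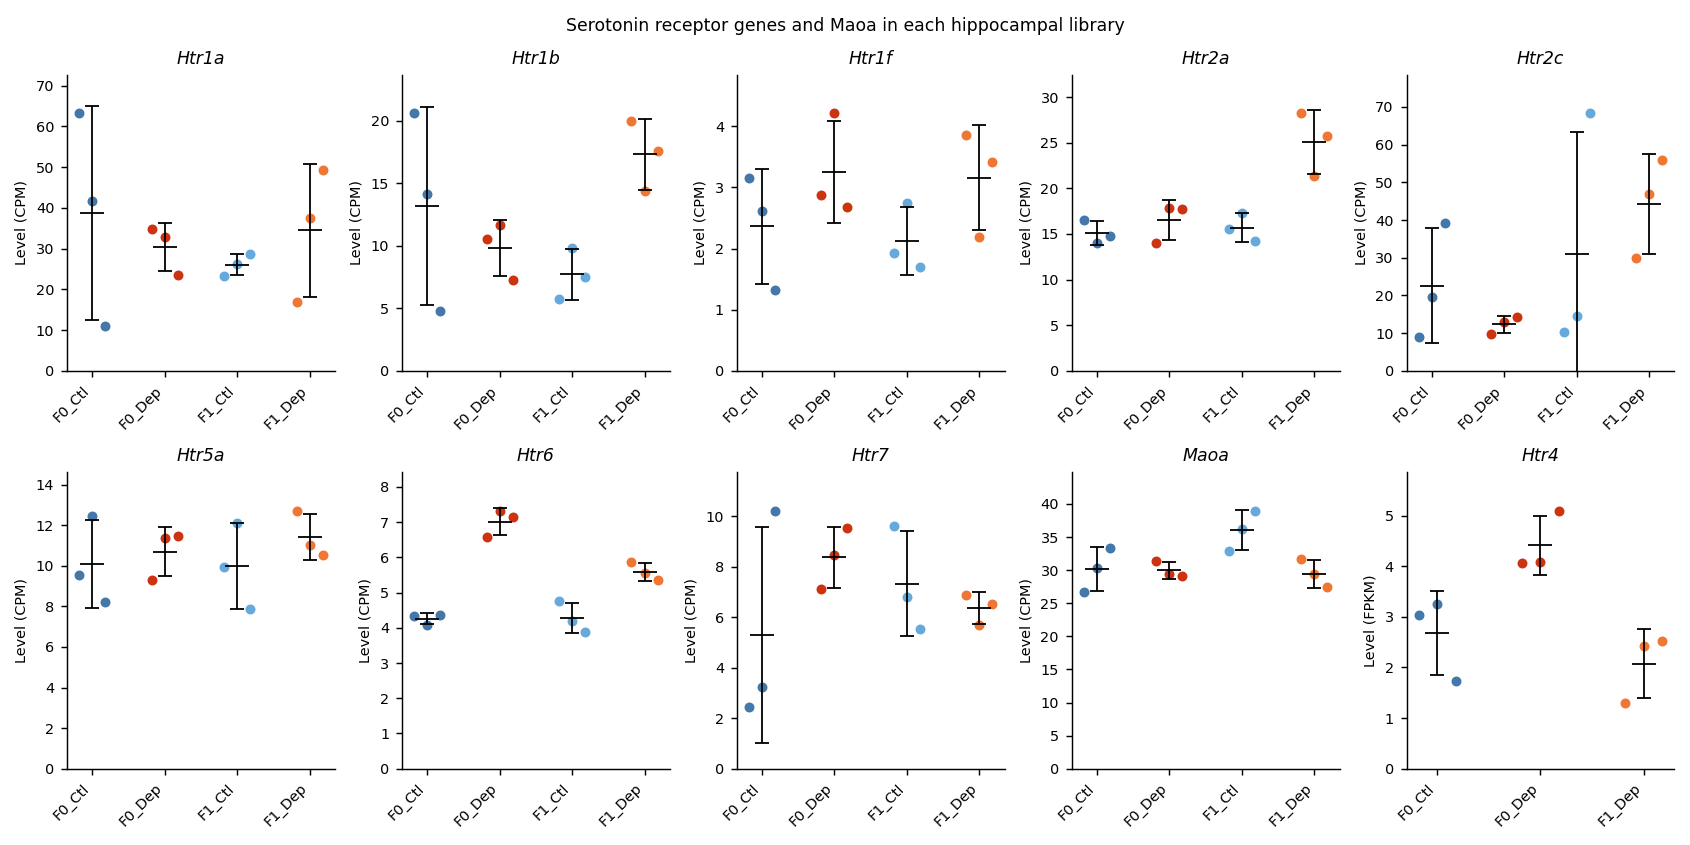
Level of each gene in every library, as CPM from the count table, or as FPKM for Htr4 (no F1_Ctl values used); points are libraries 1 to 3 from left to right, and bars are the group mean ± SD. Htr2a is highest in the 3 F1_Dep libraries, Htr6 is highest in the 3 F0_Dep libraries, and Htr1a and Htr2c spread widely within groups.

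Among the receptors of inhibitory coupling, Htr1a, the autoreceptor of raphe neurons and a receptor abundant on CA1 pyramidal cells, ranged widely within groups and showed no difference past the threshold. It lies on chr13:105443639-105448122 (ENSMUSG00000021721) as a single exon. Its level was 63.2, 41.7 and 11.1 CPM in F0_Ctl, 34.9, 32.8 and 23.6 in F0_Dep, 23.3, 26.3 and 28.6 in F1_Ctl, and 16.9, 37.5 and 49.2 in F1_Dep. The highest and the lowest of all 12 libraries were both F0_Ctl mice. F0_Dep differed from F0_Ctl by -0.34 ± 0.49 (log2 fold change ± SE; edgeR, adjusted p = 0.733) and F1_Dep from F1_Ctl by 0.41 ± 0.49 (edgeR, adjusted p = 0.753), and groups overlapped in both.

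Across libraries Htr1a moved with CA1 markers. The 3 genes with the most similar profile among 12671 genes were Arhgap12 (Pearson r = 0.979 over 12 libraries), Fibcd1 (0.973) and Wfs1 (0.970), of which Fibcd1 and Wfs1 are in the CA1 list, and Pou3f1, another CA1 marker, stood at rank 6 with 0.947. F0_Ctl 1 was highest in Htr1a and in the CA1 level (1.18), and F0_Ctl 3 was lowest in both (-1.52). These correlations are a description over 12 libraries of 4 groups. Summed CA1 markers (5 of 5 fitted) ran from 184 to 1195 CPM in F0_Ctl, 323 to 584 in F0_Dep, 315 to 489 in F1_Ctl and 402 to 809 in F1_Dep. The part of CA1 content in any Htr1a difference was not tested.

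**Figure D2:**
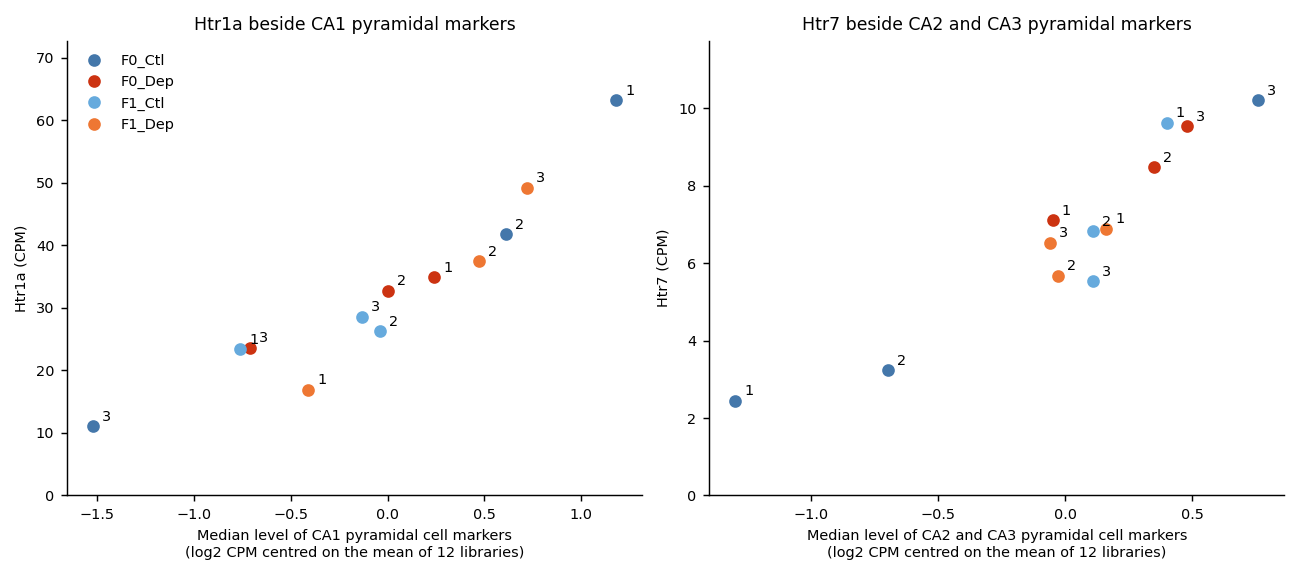
Left, Htr1a (CPM) against the median level of 5 CA1 pyramidal cell markers; right, Htr7 (CPM) against that of 6 CA2 and CA3 markers (both log2 CPM centred on the mean of the 12 libraries); points are libraries, coloured by group and numbered by replicate. F0_Ctl 1 and F0_Ctl 3 lie at opposite ends of both plots.

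Htr1b, the inhibitory receptor found on axon terminals, was higher in F1_Dep than in F1_Ctl in every library, but the difference did not pass the test. Its level was 20.6, 14.1 and 4.81 CPM in F0_Ctl, 10.6, 11.6 and 7.31 in F0_Dep, 5.76, 9.85 and 7.54 in F1_Ctl, and 20.0, 14.4 and 17.6 in F1_Dep. The F1_Dep libraries lay above all F1_Ctl and F0_Dep libraries, and F0_Ctl held both the lowest and the highest of all 12 libraries. The F1_Dep minus F1_Ctl difference was 1.17 ± 0.40 (edgeR, adjusted p = 0.215), the F0 difference -0.42 ± 0.40 (edgeR, adjusted p = 0.588), and the difference between the 2, the interaction, 1.59 ± 0.57 (edgeR, adjusted p = 0.251). Leaving out single libraries moved that interaction from 1.09 to 1.98, and it passed in 2 of 20 alternatives. One was without F0_Ctl 3 (1.98, edgeR, adjusted p = 0.0282), the library lowest in CA1 markers (-1.52). The other was without F0_Ctl 3, F1_Ctl 3 and F1_Dep 1 together, chosen after the data had been seen.

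Among the profiles nearest to Htr1b were Chrna5 (r = 0.960) and Sez6 (0.955), and the CA1 marker Mpped1 stood at rank 30 of 12671 genes with 0.905. CA1 markers were higher in F1_Dep than in F1_Ctl for 5 of 5 genes (median 0.51, none passing). Striatum markers were higher for 11 of 11 (median 1.61, none passing by edgeR). F1_Dep 1, with the most Htr1b of its group (20.0 CPM), stood at -0.41 in CA1 and 2.78 in striatum markers. F1_Dep 2 and F1_Dep 3 stood at 0.47 and 0.72 in CA1 and at 0.47 and -0.03 in striatum markers. The part of either list in the Htr1b difference was not tested. Htr1b (chr9:81628291-81633828, minus strand, ENSMUSG00000049511) shares 852 exon bases with the antisense gene D430036J16Rik, and without knowledge of strand in the counting their reads cannot be told apart.

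Htr1f and Htr5a, both sparse in the hippocampus, showed no difference past the threshold. Htr1f (chr16:64924729-65105854, ENSMUSG00000050783) ranged from 1.32 to 4.21 CPM, 29 to 76 counts a library, and Htr5a (chr5:27842149-27855088, ENSMUSG00000039106) from 7.89 to 12.7 CPM. Group means of Htr5a lay between 9.98 and 11.4 CPM. The F0 difference was 0.46 ± 0.35 for Htr1f (edgeR, adjusted p = 0.485) and 0.09 ± 0.19 for Htr5a (edgeR, adjusted p = 0.837). In the F1 comparison the differences were 0.57 ± 0.35 and 0.20 ± 0.19 (edgeR, adjusted p = 0.483 and 0.684). Among the nearest in profile were Prkcb (r = 0.916) and Phactr1 for Htr1f, and Syt4 (r = 0.932), Hrh2 and Btbd8 for Htr5a.

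Htr2a, the receptor of pyramidal cells and interneurons at which classical hallucinogens act, was highest in the 3 F1_Dep libraries in counts. The gene lies on chr14:74640840-74709494 (ENSMUSG00000034997) in 3 exons. It measured 16.5, 14.0 and 14.8 CPM in F0_Ctl, 14.0, 17.8 and 17.7 in F0_Dep, 15.5, 17.3 and 14.3 in F1_Ctl, and 28.2, 21.3 and 25.7 in F1_Dep. Each F1_Dep library stood above all 9 others, which overlapped among themselves between 14.0 and 17.8 CPM.

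The F1_Dep mean was 25.1 ± 3.48 CPM (SD, n = 3) against 15.1 ± 1.3, 16.5 ± 2.18 and 15.7 ± 1.54 in F0_Ctl, F0_Dep and F1_Ctl. Htr2a was higher in F1_Dep than in F0_Dep by 0.60 ± 0.14, a 1.52-fold difference (edgeR, adjusted p = 0.044), and was the only one of the 9 genes in counts to pass in that comparison, in which 2.88% of all genes passed. The difference was 0.68 ± 0.14 from F1_Ctl (edgeR, adjusted p = 0.0751) and 0.73 ± 0.14 from F0_Ctl (edgeR, adjusted p = 0.103), and neither passed. F0_Dep and F0_Ctl differed by 0.13 ± 0.14 (edgeR, adjusted p = 0.639), and the interaction was 0.55 ± 0.20 (edgeR, adjusted p = 0.256). The call against F0_Dep was lost on leaving out any one of the F0_Dep libraries, F1_Dep 1 or F1_Dep 3 (adjusted p between 0.12 and 0.159) but not F1_Dep 2, with the difference between 0.49 and 0.66.

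Several tissue markers were set beside Htr2a, and not all of them followed it. F1_Dep 1, highest in Htr2a, was also highest in striatum markers (2.78) and lowest in dentate granule cell markers (-1.94), and without it the F1_Dep minus F0_Dep difference was 0.51 (edgeR, adjusted p = 0.159). Summed dentate markers (11 of 11 fitted) ran from 281 to 677 CPM in F1_Dep and from 754 to 1234 in the other groups, and their part in the Htr2a difference was not tested. The choroid plexus level was 1.60 to 2.74 in F1_Dep, 2.55 in F0_Ctl 3 and 3.82 in F1_Ctl 3, libraries where Htr2a stood at 14.8 and 14.3 CPM, and its part was not tested. Interneurons are a class that carries Htr2a. Their markers stood at 0.08 to 0.13 in F1_Dep, above F1_Ctl (-0.11 to -0.02) without overlap and overlapping F0_Ctl (-0.31 to 0.12) and F0_Dep (-0.15 to 0.11), and 7 of 9 were higher in F1_Dep than in F0_Dep (median 0.26, none passing by edgeR). The interneuron marker Slc32a1 stood at rank 19 of 12671 genes in likeness to Htr2a (r = 0.827) and Gad2 at rank 78 (0.764). The other interneuron markers ranked below these. Slc32a1 and Gad2 were both highest in F1_Dep 1 (85.1 and 203 CPM), the library highest in striatum markers. The part of these markers in the Htr2a difference was not tested. The nearest profiles were App (r = 0.915), Xxylt1 (0.905) and Gnao1 (0.889); within groups, r with these genes fell to between 0.435 and 0.571.

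The authors' FPKM placed Htr2a differently in F0_Dep. They were 1.48, 1.81 and 1.55 in F0_Ctl, 2.41, 3.51 and 3.01 in F0_Dep, and 3.84, 3.28 and 4.76 in F1_Dep. On this scale F0_Dep already lay above F0_Ctl in every library, by 0.60 ± 0.15 on log2(FPKM + 1) (limma, adjusted p = 0.0225), and overlapped F1_Dep, which differed from it by 0.32 ± 0.15 (limma, adjusted p = 0.175). F1_Dep exceeded F0_Ctl by 0.92 ± 0.15 (limma, adjusted p = 0.0422), larger than the 0.73 in counts. Of all genes, 21.2% passed the FPKM test for F0_Dep against F0_Ctl and 0.268% that for F1_Dep against F0_Ctl. The F1_Dep minus F0_Ctl difference thus had the same direction in both files, while the place of F0_Dep did not.

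Htr2c, the other phospholipase C receptor, ranged from 8.96 to 68.3 CPM and was highest where choroid plexus transcripts were highest. It lies on chrX:146962513-147197277 (ENSMUSG00000041380). Its level was 8.96, 19.7 and 39.1 CPM in F0_Ctl, 9.77, 12.9 and 14.3 in F0_Dep, 10.3, 14.6 and 68.3 in F1_Ctl, and 29.8, 46.9 and 56.0 in F1_Dep. Ttr in the same libraries was 3.00, 5.09 and 4636 CPM in F0_Ctl, 112, 197 and 5.67 in F0_Dep, 94.2, 531 and 8263 in F1_Ctl, and 2604, 4085 and 3741 in F1_Dep. The 5 libraries with Ttr at 2604 CPM or more were the 5 with the most Htr2c, at 29.8 CPM or more, and the other 7 held at most 19.7.

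Below that level the genes parted. Ttr ran from 3.00 to 531 CPM among the 7 libraries low in it, and Htr2c in them did not follow: F0_Ctl 2, with 5.09 CPM of Ttr, had 19.7 CPM of Htr2c, more than F1_Ctl 2 with 531 CPM of Ttr. Of the 18 choroid plexus markers, Enpp2 came nearest to Htr2c (r = 0.948, rank 12 of 12671 genes), followed by Prlr (0.939), while Ttr itself ranked 692nd at 0.786. The genes nearest of all were Slc37a2 (0.976), Vat1l (0.972) and Rassf4 (0.964). Summed choroid markers ran from 238 to 6723 CPM in F0_Ctl, 272 to 628 in F0_Dep, 439 to 12789 in F1_Ctl and 3791 to 6511 in F1_Dep, and Cldn2 and Clic6 were at 0 in 1 library each, both of F0_Ctl.

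**Figure D3:**
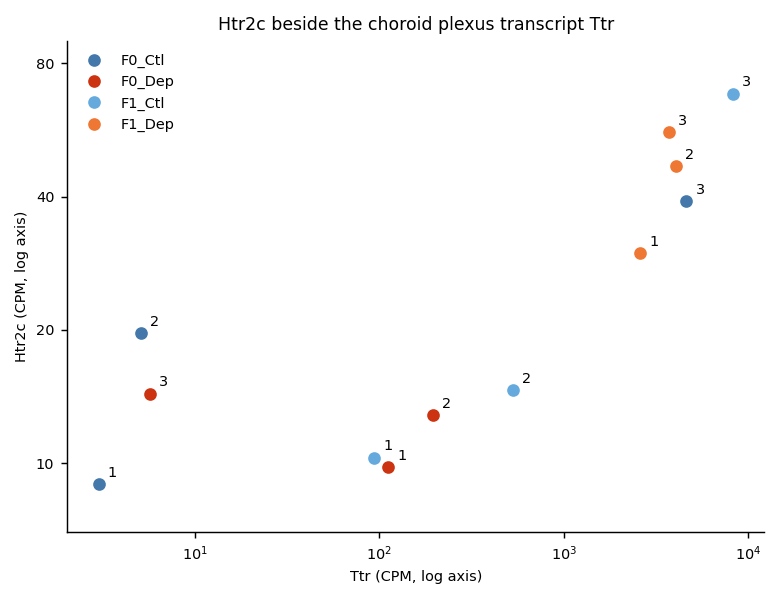
Htr2c against Ttr in the 12 libraries, both as CPM on log axes, coloured by group and numbered by replicate. The 3 F1_Dep libraries, F0_Ctl 3 and F1_Ctl 3 form the upper right corner, with Htr2c between 29.8 and 68.3 CPM, and the other 7 libraries show no common rise of Htr2c with Ttr.

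No Htr2c difference passed in counts by edgeR over the 4 groups. F1_Dep exceeded F0_Dep in every library by 1.84 ± 0.66 (edgeR, adjusted p = 0.134), which passed by edgeR on the 2 groups alone (adjusted p = 0.00146) and by limma-voom (1.93, adjusted p = 0.00201). For Ttr the F1_Dep minus F0_Dep difference was 5.05 ± 2.35 (edgeR, adjusted p = 0.229). In FPKM the Htr2c difference was 1.46 ± 0.39 and passed (limma, adjusted p = 0.0414), as did 11.98% of all genes there. F0_Dep minus F0_Ctl was -0.88 ± 0.66 (edgeR, adjusted p = 0.482) and F1_Dep minus F1_Ctl 0.51 ± 0.63 (edgeR, adjusted p = 0.762). By limma-voom the latter was 1.38 and passed (adjusted p = 0.0466). Leaving out single libraries moved the first from -1.24 (without F0_Ctl 1) to -0.21 (without F0_Ctl 3) and the second from 0.09 (without F1_Ctl 1) to 1.86 (without F1_Ctl 3), with no call by edgeR (adjusted p = 0.139 for the last). With F0_Ctl 3, F1_Ctl 3 and F1_Dep 1 all left out (chosen after the data had been seen), F1_Dep minus F1_Ctl became 2.04 (edgeR, adjusted p = 0.0118), and F1_Dep then held the only libraries rich in choroid plexus transcripts. The part of choroid plexus in these differences was not tested.

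Among the receptors that raise cyclic AMP, Htr6, a receptor of neurons that sits on their primary cilia, was higher in F0_Dep. It lies on chr4:139061108-139075570, minus strand, ENSMUSG00000028747. Its level was 4.33, 4.09 and 4.36 CPM in F0_Ctl, 6.57, 7.32 and 7.14 in F0_Dep, 4.75, 4.18 and 3.89 in F1_Ctl, and 5.86, 5.55 and 5.36 in F1_Dep. The 3 F0_Dep libraries stood above the 3 F1_Dep libraries, and these above all 6 control libraries, with no overlap. Between 76 and 132 counts a library lay behind these values.

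Htr6 averaged 7.01 ± 0.39 CPM in F0_Dep against 4.26 ± 0.148 in F0_Ctl (SD, n = 3), a difference of 0.72 ± 0.15 that narrowly missed the threshold (edgeR, adjusted p = 0.0525). It passed in 5 of 18 alternatives, DESeq2 among them (adjusted p = 0.00222). F1_Dep differed from F1_Ctl by 0.39 ± 0.15 (edgeR, adjusted p = 0.246) and from F0_Dep by -0.33 ± 0.14 (edgeR, adjusted p = 0.21). Its nearest profiles were Mfhas1 (r = 0.949), Scyl2 (0.944) and Ralgps2 (0.939), which within groups fell to between 0.623 and 0.786. Beside the higher Htr6 of F0_Dep, endothelial markers were lower there (-0.18 to -0.01) than in F0_Ctl (0.09 to 0.49). Of the 5 endothelial markers 4 were lower and 1 passed, as lower, where 0.495% of all genes passed (edgeR). Oligodendrocyte markers in F0_Dep (-0.62 to -0.43) overlapped F0_Ctl (-0.90 to 0.50) and were lower than in F1_Ctl (-0.04 to 0.75). Neuronal markers were higher in F0_Dep than in F0_Ctl for 5 of 5 genes (median 0.23). CA2 and CA3 markers were higher for 6 of 6 (median 0.38) and CA1 markers lower for 5 of 5 (median -0.60). None of these neuronal, CA1, CA2 or CA3 markers passed by edgeR. The part of tissue content in the Htr6 differences was not tested.

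This separation was not seen in FPKM. Htr6 was 2.09, 1.41 and 1.78 FPKM in F0_Ctl, 1.96, 2.22 and 2.28 in F0_Dep, and 2.18, 1.70 and 2.25 in F1_Dep, so all groups overlapped, and the F0 difference was 0.20 ± 0.14 (limma, adjusted p = 0.313). Over 12357 genes in both files, the F0_Dep minus F0_Ctl difference in FPKM less that in counts had 5th and 95th percentiles of -0.31 and 0.38. For Htr6 it was -0.52, at percentile 1.08, and for Htr2a 0.47, at percentile 97.2. Both genes thus stood near opposite ends of how far the 2 files differ, and which file is nearer to the transcript level was not tested.

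**Figure D4:**
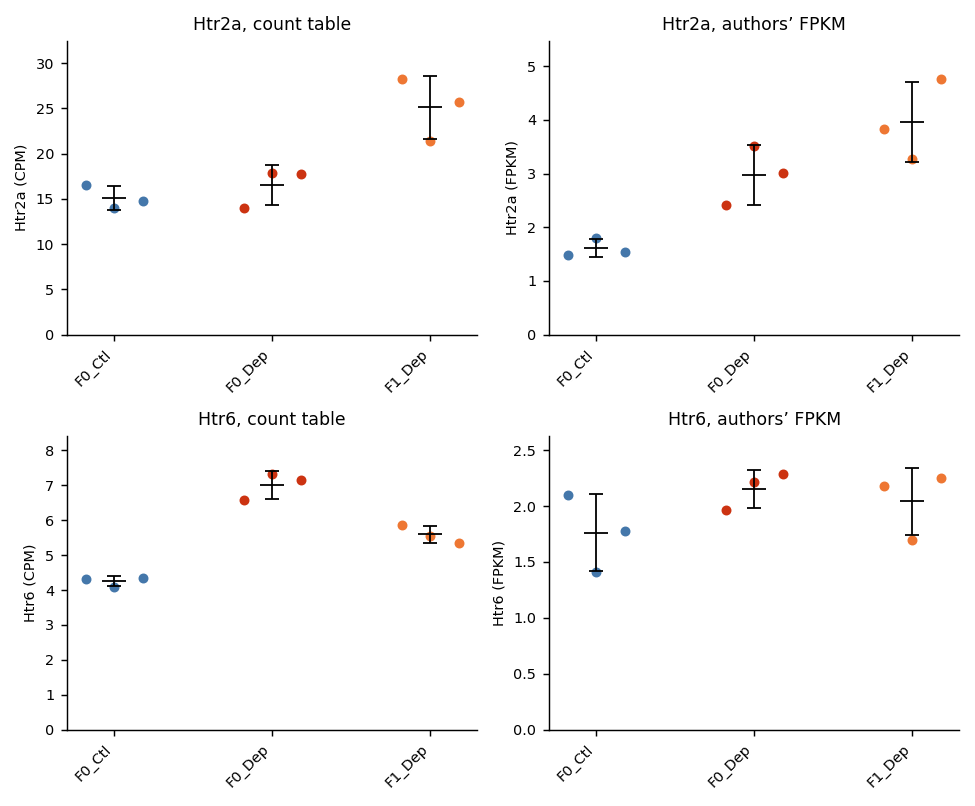
Htr2a (upper) and Htr6 (lower) as CPM from the count table (left) and as the authors' FPKM (right) in the 9 libraries with both; points are libraries 1 to 3 from left to right, bars the mean ± SD. F0_Dep lies with F0_Ctl in Htr2a counts but above it in FPKM, and above F0_Ctl in Htr6 counts but overlapping it in FPKM.

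Htr4, a receptor whose activation excites CA1 and granule neurons, was lower in F1_Dep than in F0_Dep in FPKM, by a call that single libraries could undo. In FPKM this gene (ENSMUSG00000026322) measured 3.03, 3.26 and 1.73 in F0_Ctl, 4.06, 4.09 and 5.09 in F0_Dep, and 1.29, 2.41 and 2.52 in F1_Dep. The F0_Dep libraries were above all 6 others, and F1_Dep overlapped F0_Ctl. The F1_Dep minus F0_Dep difference was -0.84 ± 0.21 (limma, adjusted p = 0.0331), that of F0_Dep minus F0_Ctl 0.58 ± 0.21 (limma, adjusted p = 0.0708), and that of F1_Dep minus F0_Ctl -0.26 ± 0.21 (limma, adjusted p = 0.528). The call was lost on leaving out any one of these 6 F0_Dep or F1_Dep libraries (adjusted p from 0.0632 to 0.133), with the difference between -0.95 and -0.64. It was also lost without the filter on FPKM (limma, adjusted p = 0.089). Of all genes, 11.98% passed the FPKM test for F1_Dep against F0_Dep. Dentate granule cell markers were also lowest in F1_Dep, and their part was not tested.

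Htr7, the last receptor of this coupling, followed markers of CA2 and CA3. It lies on chr19:35958734-36057507, minus strand, ENSMUSG00000024798. Its level was 2.44, 3.23 and 10.2 CPM in F0_Ctl, 7.11, 8.48 and 9.54 in F0_Dep, 9.63, 6.82 and 5.54 in F1_Ctl, and 6.89, 5.68 and 6.53 in F1_Dep. F0_Ctl held both the lowest libraries and the highest one, F0_Ctl 3. The nearest profiles were Gpc1 (r = 0.974), Chgb (0.962) and Trhde (0.959), with the CA3 gene Grik4 seventh (0.943) and Iyd ninth (0.940).

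The CA2 and CA3 level was -1.30 and -0.70 in the 2 F0_Ctl libraries low in Htr7 and 0.76 in F0_Ctl 3, the reverse of their CA1 levels (1.18, 0.61 and -1.52). Htr1a and Htr7 stood at opposite ends in the same 3 mice. F0_Dep differed from F0_Ctl in Htr7 by 0.66 ± 0.42 (edgeR, adjusted p = 0.414). Without F0_Ctl 3 the difference was 1.57 (edgeR, adjusted p = 0.0286), with the 2 F0_Ctl libraries low in CA2 and CA3 markers remaining, and the interaction was -1.78 (edgeR, adjusted p = 0.0387) against -0.86 ± 0.60 with all libraries (edgeR, adjusted p = 0.577). F1_Dep differed from F1_Ctl by -0.21 ± 0.42 (edgeR, adjusted p = 0.875). Summed CA2 and CA3 markers (6 of 6 fitted) ran from 192 to 510.1 CPM in F0_Ctl, 317 to 435 in F0_Dep, 346 to 395 in F1_Ctl and 329 to 380.1 in F1_Dep; their part in the Htr7 differences was not tested.

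Maoa, the mitochondrial enzyme that oxidises serotonin, noradrenaline and dopamine, stayed between 26.7 and 38.9 CPM in all 12 libraries, and no comparison passed in counts by edgeR. It lies on chrX:16619698-16687818 (ENSMUSG00000025037) in 15 exons. Its level was 26.7, 30.4 and 33.3 CPM in F0_Ctl, 31.4, 29.4 and 29.1 in F0_Dep, 32.9, 36.2 and 38.9 in F1_Ctl, and 31.6, 29.4 and 27.4 in F1_Dep. The F1_Ctl libraries lay above those of F1_Dep without overlap, and the other 3 groups overlapped. F0_Dep differed from F0_Ctl by -0.01 ± 0.10 (edgeR, adjusted p = 0.972), F1_Dep from F1_Ctl by -0.29 ± 0.10 (edgeR, adjusted p = 0.228; limma-voom, -0.33, adjusted p = 0.0273) and F1_Ctl from F0_Ctl by 0.26 ± 0.10 (edgeR, adjusted p = 0.75). F1_Ctl is also the group whose labels carry lane names. In FPKM the F0 difference was 0.29 ± 0.12 (limma, adjusted p = 0.105), with F0_Dep (8.42, 8.00 and 7.82) above F0_Ctl (5.09, 7.15 and 7.18).

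**Figure D5:**
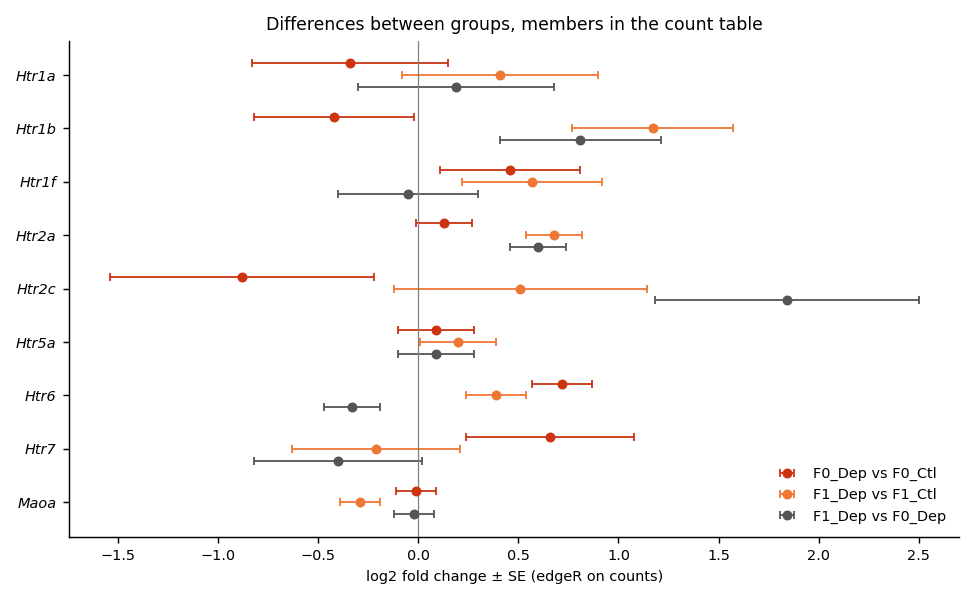
Log2 fold change ± SE (edgeR on counts) of the 9 genes in the count table for F0_Dep against F0_Ctl, F1_Dep against F1_Ctl and F1_Dep against F0_Dep. Htr2a lies at 0.68 and 0.60 in both F1_Dep comparisons and at 0.13 in the F0 comparison; Htr6 is at 0.72 in the F0 comparison, and Htr2c has the widest errors.

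Set side by side, few of the 9 genes in counts passed anywhere. In F0_Dep against F0_Ctl, 0 of 9 passed (edgeR) where 0.495% of all genes did; 1 of 9, Htr6, had an unadjusted p under 0.05, against 19.7% of all genes, and 1 of 9 had groups that did not overlap, against 27.4%. In F1_Dep against F1_Ctl, 0 of 9 passed (edgeR) where 0.167% of all genes did, while 4 of 9 had an unadjusted p under 0.05, against 14.8% of all genes. Those were Htr1b, Htr2a and Htr6, higher in F1_Dep, and Maoa, lower, and the same 4 had groups without overlap, against 18.98% of all genes. The median difference of the 9 genes was 0.41 in that comparison and 0.09 in F0, beside -0.02 and -0.03 over all genes.

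F1_Dep against F0_Dep gave the 1 call, Htr2a higher, with 5 of 9 genes not overlapping (Htr1b, Htr2a and Htr2c higher, Htr6 and Htr7 lower) against 42.97% of all genes, a share near that background, and 3 of 9 at an unadjusted p under 0.05 (Htr2a, Htr2c and Htr6; edgeR) against 22.3%. F1_Dep against F0_Ctl gave 0 of 9 calls (edgeR), as it gave 0% of all genes, with 2 of 9 at an unadjusted p under 0.05 (Htr2a and Htr6) against 12.9%, and the same 2 without overlap against 19.6%. F1_Ctl and F0_Ctl differed in 0 of 9 genes by edgeR, again 0% of all genes, with Maoa alone of 9 at an unadjusted p under 0.05 against 5.92% of all genes and none of 9 without overlap, against 6.06%. The interaction passed in 0 of 9 (edgeR), against 0.0681% of all genes, with Htr1b and Htr2a at an unadjusted p under 0.05, 2 of 9 against 13.4% of all genes. DESeq2 called 1 gene in each of the 4 comparisons with a Dep group (Htr6 in F0, Htr2a in the 3 with F1_Dep) and 0 in the last pair. The share of all genes that DESeq2 called was not worked out. Comparisons that share a group share its libraries and are not independent.

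Other genes of serotonin handling are a list of 29, of which 22 were fitted: other receptors, synthesis, packaging and uptake, breakdown, competing use of tryptophan, and receptor adaptors and editing enzymes. In F0_Dep against F0_Ctl 12 were higher and 10 lower, with a median of 0.04 against -0.03 over all genes. By edgeR 0 passed, where 0.495% of all genes did. The smallest p belonged to S100a10, also called p11, an adaptor that carries Htr1b and Htr4 to the cell surface and is known from work on depression. S100a10 was 8.65, 8.79 and 6.31 CPM in F0_Ctl and 3.20, 3.21 and 3.11 in F0_Dep. In F1_Ctl it was 4.84, 12.4 and 11.7 CPM and in F1_Dep 8.54, 6.11 and 7.11, so the 3 F0_Dep libraries were the lowest of all 12.

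The S100a10 difference in F0 was -1.32 ± 0.31, short of the threshold in counts (edgeR, adjusted p = 0.0642), and -1.15 ± 0.13 in FPKM, where it passed (limma, adjusted p = 0.0069). Of all genes, 21.2% passed that FPKM test. Endothelial markers were also lower in F0_Dep (-0.18 to -0.01) than in F0_Ctl (0.09 to 0.49), and their part in the S100a10 difference was not tested. F1_Dep exceeded F0_Dep in S100a10 by 1.19 ± 0.31 (edgeR, adjusted p = 0.0551) and in FPKM by 1.01 ± 0.13 (limma, adjusted p = 0.00909), where 11.98% of all genes passed. F1_Dep differed from F1_Ctl by -0.41 ± 0.29 (edgeR, adjusted p = 0.556). Next in F0 was Adarb1, an RNA editing enzyme that acts on Htr2c transcripts, at 0.61 ± 0.20 (edgeR, adjusted p = 0.131). Aldh2 of the same list also passed in FPKM, at -0.50 ± 0.14 in F0 (limma, adjusted p = 0.0317). In F1_Dep against F0_Dep it passed at 0.57 ± 0.14 (limma, adjusted p = 0.0309). In counts neither Aldh2 difference passed (edgeR, adjusted p = 0.571 and 0.182).

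Tdo2, which diverts tryptophan from serotonin synthesis, was the only gene of that list to pass in counts by edgeR. DESeq2 also called S100a10 and Adarb1 in F0 (adjusted p = 0.003 and 0.0326) and Ddc in F1_Dep against F0_Ctl (adjusted p = 0.0311). By limma-voom S100a10 passed in F0 (adjusted p = 0.0359). These alternatives were read only for genes that passed by edgeR, or else the 2 of smallest p, in each comparison, so other genes of the list may also pass in them. Tdo2 measured 1.70, 4.13 and 3.02 CPM in F1_Dep and between 6.04 and 11.6 in the other 9 libraries. It was lower in F1_Dep than in F1_Ctl, with a log2 difference of -1.84 ± 0.30 (edgeR, adjusted p = 0.0438), and than in F0_Dep, with one of -1.60 ± 0.30 (edgeR, adjusted p = 0.029). The first call was lost without F1_Ctl 2, F1_Ctl 3, F1_Dep 1 or F1_Dep 3 and the second without any one library but F1_Dep 2 (edgeR, adjusted p from 0.0743 to 0.167). In the brain Tdo2 is a granule cell gene and is 1 of the 11 dentate markers, all 11 of which were lower in F1_Dep than in F1_Ctl, with a median of -1.35; their part in the Tdo2 difference was not tested. In F1_Dep against F1_Ctl 10 genes of the list were higher and 12 lower (median -0.04), and against F0_Dep 13 and 9. In each, 1 of 22 passed, as lower, where 0.167% and 2.88% of all genes passed (edgeR). Tph2 was 2.24, 1.65 and 2.89 CPM in F1_Ctl and 1.03, 1.21 and 0.675 in F1_Dep, lower without overlap by a difference that did not pass (-1.22 ± 0.36; edgeR, adjusted p = 0.163). It was named after its values were seen. Ddc, the enzyme that completes serotonin and dopamine synthesis, had the next smallest p in F1_Dep against F0_Ctl (0.65 ± 0.17; edgeR, adjusted p = 0.165), after Tdo2 at -1.49 ± 0.30 (edgeR, adjusted p = 0.114). In F1_Ctl against F0_Ctl the smallest were Ddc (0.46 ± 0.17) and Akr1b3, an aldose reductase (0.22 ± 0.13; edgeR, adjusted p = 0.75 for both). The interaction of Tdo2 was -1.94 ± 0.42 (edgeR, adjusted p = 0.0962), followed by Htr1d, a further inhibitory receptor, at 3.14 ± 1.22 (edgeR, adjusted p = 0.291), which stood at 4.06 CPM in F1_Dep 1, the library rich in striatum markers, and at 0.772 or below in the other 11.

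The transducers downstream of the receptors are a list of 35, of which 34 were fitted. Kcnj6, a subunit of the potassium channel that Htr1a opens through inhibitory G proteins, was lower in F1_Dep than in F0_Dep. It measured 37.9, 54.7 and 37.2 CPM in F0_Ctl, 81.6, 78.0 and 95.6 in F0_Dep, 61.6, 49.3 and 34.3 in F1_Ctl, and 30.0, 47.8 and 46.1 in F1_Dep. The 3 F0_Dep libraries were the highest of all 12. F1_Dep minus F0_Dep was -1.04 ± 0.23 (edgeR, adjusted p = 0.0398), and in FPKM -1.15 ± 0.24 (limma, adjusted p = 0.0198). Leaving out any one of the 6 libraries ended the call in counts (edgeR, adjusted p from 0.0648 to 0.171). F0_Dep exceeded F0_Ctl by 0.97 ± 0.23 (edgeR, adjusted p = 0.0657) and in FPKM by 1.08 ± 0.24 (limma, adjusted p = 0.0154). Of all genes, 11.98% passed the FPKM test for F1_Dep against F0_Dep and 21.2% that for F0_Dep against F0_Ctl (limma). In F1_Dep against F0_Dep, dentate granule cell markers were lower for 11 of 11 genes (median -1.23, 2 passing by edgeR). Neuronal markers were lower there for 4 of 5 (median -0.37, 1 passing by edgeR), where 2.88% of all genes passed. The part of these markers in the Kcnj6 difference was not tested.

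No transducer passed in the comparisons of F1_Dep with either control group, of both control groups or in the interaction (edgeR). The smallest p belonged in F1_Dep against F1_Ctl to Mapk3 (-0.59 ± 0.13; edgeR, adjusted p = 0.0886) and Adcy5 (0.87 ± 0.26; edgeR, adjusted p = 0.166), and in F1_Dep against F0_Ctl to Adcy5 (0.99 ± 0.26) and Kcnj3 (-0.41 ± 0.12; edgeR, adjusted p = 0.165 and 0.191). Adcy5, a cyclase rich in striatum, was 331 CPM in F1_Dep 1 and at most 150 elsewhere. In F1_Ctl against F0_Ctl, Mapk3 differed by 0.33 ± 0.13 (edgeR, adjusted p = 0.75).

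By direction, 22 transducers were higher and 12 lower in F0_Dep than in F0_Ctl, with 1 of 34 passing where 0.495% of all genes did (edgeR). F1_Dep against F1_Ctl gave 15 higher and 19 lower with 0 passing, against 0.167% of all genes (edgeR). F1_Dep against F0_Dep gave 13 and 21 with 1 passing each way, where 2.88% of all genes passed in either direction (edgeR). Medians were 0.07, -0.03 and -0.11 beside -0.03, -0.02 and 0.01 over all genes. Of the 8 transducers of phospholipase C coupling, below Htr2a and Htr2c, 7 were higher in F0_Dep than in F0_Ctl (median 0.20, 1 passing as lower), 5 in F1_Dep against F1_Ctl (median 0.11, none passing) and 3 in F1_Dep against F0_Dep (median -0.10, 1 passing as higher; edgeR). Of the 8 of inhibitory coupling, 5, 3 and 4 were higher in the same comparisons (medians 0.05, -0.10 and 0.03), with 1 passing, Kcnj6, lower in the last (edgeR).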

How the data were processed

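The 10 genes and all lists were chosen with earlier results of these data known. Deposited by the authors were expected counts (estimates, not always whole) for all 12 libraries and FPKM values per gene for 9 of them (F0_Ctl, F0_Dep and F1_Dep). The mRNA kit was stranded, per the labels' protocols. HISAT2, Cufflinks 2.2.1 and mm10 are named without roles per the submitters' processing notes. The tool behind the count table, its annotation and its use of strand are unstated in those notes and the labels. Of the count table's IDs, 610 had no symbol (0.579% of counts) and were kept under their ID, and 37 that repeated a symbol were added to its first ID. Positions are those of GENCODE M21 on GRCm38.

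Expected counts were rounded and tested with edgeR 4.0.16 (R 4.3.3): TMM scaling, filterByExpr, quasi-likelihood F-test over the 4 groups together, Benjamini-Hochberg over 16163 genes, called at an adjusted p under 0.05. SEs are approximate, computed as the fold change over the root of F. The design named this test for the case of counts. For FPKM, limma 3.58.1 was run on log2(FPKM + 1) for the 13820 genes that reached FPKM 1 in 3 or more libraries; these fold changes understate changes of low genes. Htr4 rests on that test alone. CPM use TMM library sizes, and profiles were compared as log2 CPM (prior count 2) among genes with a mean of at least 2 CPM, passing over predicted genes. All 10 genes were named in every comparison; of the other lists, genes past the threshold, or else the 2 of smallest p. Some genes that these rules take are not reported here, and counts over a list include them. Tests were checked on simulated data. Alternatives were DESeq2 1.42.0, limma-voom, other scalings, filters, pseudocount and threshold, a replicate block, 2 groups alone and each library left out.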

Additional observations from a re-analysis of the deposited data

How the results depend on the processing

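Of 1009 alternatives for 56 gene differences, 868 kept direction and side of the threshold, 56 lost the call, 65 gained one and 20 changed sign; of 110 alternatives for counts of genes passing, 79 stayed and 31 moved. Replicate numbers did not pair the samples (same-number correlations from -0.1773 to 0.4993); with a replicate block 0 of the 9 genes passed in F1_Dep against F0_Dep, where Htr2a had an adjusted p of 0.07 (edgeR).

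The number passing in F0 was 1 with DESeq2, limma-voom, relative log expression scaling, a CPM filter, FPKM with either pseudocount (1 or 0.1), or an adjusted p under 0.1. That gene was Htr6 in the settings on counts but Htr2a in FPKM. In F1_Dep against F1_Ctl it was 1 with DESeq2, 3 with limma-voom and 1 at an adjusted p under 0.1. In F1_Dep against F0_Ctl it was 1 with DESeq2 and 1 in FPKM with either pseudocount. In F1_Dep against F0_Dep it was 4 with limma-voom, 3 with the 2 groups alone, 2 in FPKM with either pseudocount and 0 in FPKM without a filter. The 2 in FPKM were Htr2c and Htr4, and Htr2a, the 1 call in counts by edgeR, was not among them. The FPKM numbers are out of 10 genes. With a pseudocount of 1, 21.2% of all genes passed in F0, 0.268% in F1_Dep against F0_Ctl and 11.98% in F1_Dep against F0_Dep (limma). For the other alternatives the share of all genes passing was not worked out, so a gained call cannot be set against it. Leaving out each library gave 0 to 1 in F0, in F1_Dep against F1_Ctl and in F1_Dep against F0_Dep, and 0 to 2 in the interaction. With F0_Ctl 3, F1_Ctl 3 and F1_Dep 1 left out together, chosen after seeing the data, the numbers in F0, F1_Dep against F1_Ctl, F1_Dep against F0_Ctl and the interaction were 2, 1, 2 and 4. By FPKM, 2 of the 9 genes kept their place in the order of levels. The causes were not tested.

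Some differences that had not passed changed sign. In F0, Htr1a was 0.0433, 0.0893 and 0.0433 in the 3 FPKM fits and -0.78 to 0.22 leaving out single libraries, Htr1b -0.81 to 0.0715, and Htr5a -0.0342 to 0.27 (-0.0345 without the 3 libraries). Maoa in F0 was 0.0065 with DESeq2, 0.007 with relative log expression scaling, 0.0059 with the 2 groups alone, 0.29, 0.33 and 0.29 in FPKM, 0.0772 without the 3 libraries and -0.0724 to 0.0771 leaving out single libraries. In F1_Dep against F1_Ctl, Htr5a was -0.0355 without the 3 libraries and Htr7 ran from -0.35 to 0.0424; Htr7 in F1_Dep against F0_Ctl ran from -0.0695 to 1.16. Htr1f had the fewest counts of the 9 genes, 29 to 76 a library.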
